A study of Mus musculus with 18 samples.

Results

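The adrenergic and muscarinic signalling genes examined here are 9 genes of mouse heart muscle cells, chosen by name: the receptor genes Adrb1, Adra1a, Adra1b and Chrm2, the adenylyl cyclase genes Adcy5 and Adcy6, the phosphodiesterase genes Pde3a and Pde4d, and the kinase gene Prkaca. Their Ensembl identifiers were matched to mouse symbols, and all 9 were among the 12048 genes listed for every library. Cardiomyocytes came from the hearts of mice carrying Mlc2vcre and R26REYFP, and flow sorting separated cells with 1 nucleus (mononucleated) from cells with 2 nuclei (binucleated). Hearts were taken at E18.5 (late in gestation), at P7 (the end of the first postnatal week) and in the adult, for which the labels give no age in days or weeks. Each of the 6 groups of age by nuclear class held 3 RNA-seq libraries, 18 in all, and every group carried both alleles. The Mlc2v promoter, which drives Cre in this line, belongs to a ventricular myosin light chain gene, so the reporter marks ventricular-type muscle cells and the libraries say little about atrial cells. Nothing in the labels says whether the libraries of a group came from separate litters or pooled hearts, so the p-values below reflect library-to-library spread, which may be technical.

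Noradrenaline and adrenaline drive the heart mainly through the β1 receptor (Adrb1), which acts through the stimulatory G protein on the adenylyl cyclases. Cyclic AMP made by the cyclases releases the catalytic subunit of protein kinase A (PKA), encoded by Prkaca, which phosphorylates calcium channels, phospholamban and troponin I and so raises the force and rate of the beat. Phosphodiesterases of the PDE3 and PDE4 families break cyclic AMP down again. The α1 receptors (Adra1a and Adra1b) instead work through Gq and phospholipase C, and the muscarinic M2 receptor (Chrm2) carries the vagal signal through inhibitory G proteins, which restrain the cyclases and open a potassium channel.

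Levels are given as CPM (counts per 1000000 counts of a library), which were derived from the deposited log2 values and carry the authors' scaling of each library. Listed genes took between 14833334 and 22690952 counts per library. The 9 defining cardiomyocyte markers summed to 31185 to 49066 CPM in every library, and none was at 0. Their sum was lowest in the binucleated E18.5 library 1. Markers of other cells moved with the groups. Endothelial markers summed to 14.9 to 31.9 CPM in the mononucleated E18.5 libraries, 99.2 to 125 CPM in the binucleated E18.5 libraries, 11.5 to 24.1 CPM at P7 and 101 to 142 CPM in the adult, with all 9 of them detected in every group. Fibroblast markers (8 listed) reached 306 to 894 CPM in the binucleated E18.5 libraries against 19.0 to 96.0 CPM elsewhere. Atrial markers (6 listed) fell from 540 to 1478 CPM at E18.5 to 13.3 to 65.5 CPM in the adult, where Bmp10 was at 0. Conduction-system markers (6 listed) stood at 245 to 578 CPM in the mononucleated P7 libraries and at 22.2 to 80.9 CPM in the other groups, with Cntn2 at 0 in adult binucleated cells. Leukocyte markers (6 listed) stayed at or below 39.0 CPM, with Laptm5, C1qb and C1qc at 0 in the mononucleated E18.5 group, Laptm5 and C1qb in the mononucleated P7 group and C1qc in the binucleated P7 group. Pericyte and smooth muscle markers (7 listed) went from 1319 to 1681 CPM at E18.5 to 788 to 1089 CPM in the adult, with Pdgfrb at 0 in the mononucleated E18.5 group, and the 2 listed nerve and Schwann cell genes stayed between 6.12 and 38.1 CPM. The part of these markers in the results below was not tested, and in bulk RNA from sorted cells, fewer cells of a type and less RNA per cell cannot be told apart. The binucleated E18.5 library 1 stood apart: limma gave it a weight of 0.0494.

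RefSeq promoter windows on GRCm38.p6, from 250 bases before to 50 after an annotated start, were found for 6 of the 9 genes (Adrb1, Adra1b, Chrm2, Adcy5, Pde4d and Prkaca). Those of Adrb1, Adra1b, Chrm2 and Prkaca are shown because these genes followed different courses with age. Capitals mark the GC box GGGCGG and the core TGACG of the cyclic AMP response element, each on either strand. The windows are chr19:56721867-56722166 (plus strand) for Adrb1, chr11:43836440-43836739 (minus strand) for Adra1b, chr6:36387834-36388133 (plus strand) for Chrm2 and chr8:83972728-83973027 (plus strand) for Prkaca.
Adrb1: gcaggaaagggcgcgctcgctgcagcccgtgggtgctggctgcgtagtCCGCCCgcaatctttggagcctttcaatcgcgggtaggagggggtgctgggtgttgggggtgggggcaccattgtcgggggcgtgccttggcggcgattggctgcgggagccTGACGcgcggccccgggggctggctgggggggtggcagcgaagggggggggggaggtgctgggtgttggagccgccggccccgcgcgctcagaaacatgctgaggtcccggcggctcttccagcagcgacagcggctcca
Adra1b: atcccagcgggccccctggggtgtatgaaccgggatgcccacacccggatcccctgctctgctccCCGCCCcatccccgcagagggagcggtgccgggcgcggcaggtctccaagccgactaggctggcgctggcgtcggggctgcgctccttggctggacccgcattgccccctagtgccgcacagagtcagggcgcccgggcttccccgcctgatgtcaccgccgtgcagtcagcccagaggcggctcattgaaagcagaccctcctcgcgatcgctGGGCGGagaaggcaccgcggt
Chrm2: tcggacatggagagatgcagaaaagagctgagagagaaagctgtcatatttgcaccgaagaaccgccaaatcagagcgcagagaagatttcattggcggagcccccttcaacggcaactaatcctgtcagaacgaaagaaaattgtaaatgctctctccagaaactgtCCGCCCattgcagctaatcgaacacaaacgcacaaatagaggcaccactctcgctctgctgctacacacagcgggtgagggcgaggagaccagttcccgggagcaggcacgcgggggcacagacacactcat
Prkaca: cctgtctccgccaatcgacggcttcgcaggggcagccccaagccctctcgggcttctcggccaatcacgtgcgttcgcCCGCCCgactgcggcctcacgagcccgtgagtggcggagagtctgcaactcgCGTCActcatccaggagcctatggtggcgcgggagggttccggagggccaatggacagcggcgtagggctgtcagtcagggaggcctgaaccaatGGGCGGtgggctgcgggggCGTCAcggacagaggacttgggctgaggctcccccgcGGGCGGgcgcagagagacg
The Adrb1 window held 1 GC box and 1 TGACG core, and the Prkaca window held 3 GC boxes and 2 TGACG cores. The Adra1b window shown had 2 GC boxes and Chrm2 had 1, in windows of 71.3% and 52.7% G+C. A second window of Adra1b (42.3% G+C) and of Prkaca (51.3% G+C), not shown, held neither motif. Over all 32851 RefSeq windows of this length, 35.7% held GGGCGG and 20.8% held TGACG. The whole element TGACGTCA, present in 1.79% of windows, was in none of the windows found for the 9 genes, and neither were TATAAA (13.6%) and AGGTCA (16.3%). The AGATAA motif of GATA factors (11.2% of windows) was in the Pde4d window alone, which lacked GC boxes. CANNTG, present in 72.3% of windows, occurred in the Pde4d window and in both Prkaca windows.

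The differences that passed the test lay between ages. Between E18.5 and the adult, Adra1a, Adra1b, Chrm2, Pde3a and Pde4d rose in both nuclear classes, and Adcy5 fell in binucleated cells. Between mononucleated and binucleated cells, none of the 9 passed the test at any age. The test was limma on the deposited log2 values, with Benjamini-Hochberg adjustment over all 12048 genes of a contrast and a threshold of 0.05. Of the 9 genes, 5 were called higher and none lower in the adult than at E18.5 in mononucleated cells, where 26.2% of all genes were called higher and 27.7% lower. In binucleated cells 5 were called higher and 1 lower, against 28.3% and 29.4% of all genes. The median log2 change of the 9 was 1.18 and 0.93 in the 2 classes, beside -0.01 and -0.02 for all genes. The 9 were chosen with earlier results of these data known, so their counts and medians are a description and not a test of the set. The age comparisons share libraries (the P7 libraries enter both steps), so they are not separate evidence. Statements below that libraries of different ages did not overlap describe single genes. The share of all genes without such overlap between ages is not given.

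**Figure D1:**
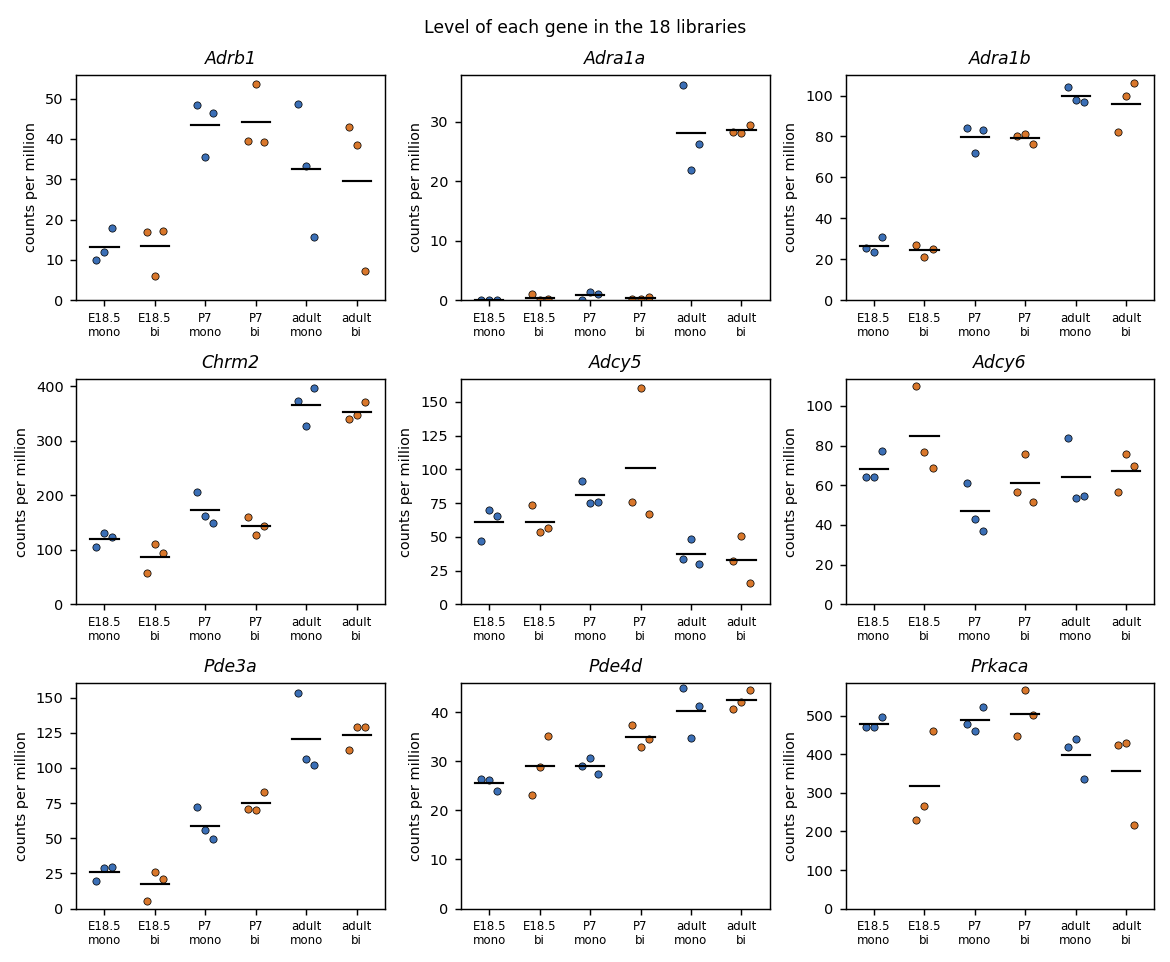
Level of each of the 9 genes in CPM (vertical axes, each from 0) in the 18 libraries, by age and nuclear class (blue mononucleated, orange binucleated). Points are libraries and bars are group means (n = 3). Chrm2, Adra1a and Adra1b stand highest in the adult, while Adcy5 is lowest there and Adrb1 is widely spread (7.35 to 48.6 CPM in the adult).

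Among the receptors, Adrb1, the main β receptor of the heart, rose between E18.5 and P7. Its level was 10, 12 and 17.9 CPM in the mononucleated E18.5 libraries, 48.4, 35.5 and 46.4 CPM at P7 and 48.6, 33.2 and 15.7 CPM in the adult. In binucleated cells the values were 16.9, 5.97 and 17.2 CPM at E18.5, 39.5, 53.6 and 39.2 CPM at P7, and 43.0, 38.4 and 7.35 CPM in the adult. Every P7 library lay above every E18.5 library of its class, whereas the adult libraries overlapped both earlier ages. The rise to P7 was 3.33-fold in mononucleated cells (log2 1.73 ± 0.57 SE, limma adjusted p = 0.0439) and 3.62-fold in binucleated cells (log2 1.86 ± 0.57, limma adjusted p = 0.0187). The mononucleated call was lost when any 1 of the 6 libraries compared was left out (adjusted p 0.0547 to 0.132). It was also lost with total count scaling (0.0521), without the intensity trend (0.0624) and without some libraries of other groups. The binucleated call was lost without E18.5 library 2 (0.0817) or P7 library 2 (0.0615).

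From P7 to the adult Adrb1 did not pass the test in mononucleated (log2 -0.55 ± 0.57, limma adjusted p = 0.476) or binucleated cells (log2 -0.92 ± 0.57, adjusted p = 0.225). Library 3 was the lowest adult library in both classes, at 15.7 and 7.35 CPM. Against E18.5, the adult level was 1.18 higher on the log2 scale in mononucleated cells (adjusted p = 0.0918) and 0.93 higher in binucleated cells (adjusted p = 0.173). Without adult binucleated library 3 the binucleated difference was 1.75 and passed (adjusted p = 0.00452), as did the mononucleated one (0.0236), whose error is estimated from all groups together. Without adult mononucleated library 3 the mononucleated difference was 1.64 (adjusted p = 0.0363). Other alternatives lowered both differences. Over all of them the mononucleated one ran from 0.79 to 1.64 (limma adjusted p up to 0.298). The binucleated one ran from 0.43 to 2.0 (limma adjusted p up to 0.553).

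Adra1b, the α1B receptor gene, rose between E18.5 and P7. Mononucleated libraries held 25.4, 23.6 and 30.9 CPM at E18.5, 83.9, 71.9 and 83.3 CPM at P7, and 104, 97.8 and 96.9 CPM in the adult. Binucleated libraries held 27.1, 20.9 and 25.2 CPM, then 80.3, 81.4 and 76.1 CPM, then 82.0, 99.9 and 106 CPM. The adult libraries all lay above the P7 libraries of their class, by a small margin in binucleated cells. The rise from E18.5 to P7 was 3.0-fold in mononucleated cells (log2 1.59 ± 0.14, limma adjusted p = 4.67e-07) and 3.26-fold in binucleated cells (log2 1.71 ± 0.14, adjusted p = 1.42e-07). The further difference from P7 to the adult, 0.32 and 0.27 on the log2 scale, did not pass (adjusted p = 0.0692 and 0.143). Without the binucleated E18.5 library 1, the mononucleated difference passed (adjusted p = 0.0305). Over all alternatives it ran from 0.02 to 0.4 in mononucleated cells (limma adjusted p up to 0.924). In binucleated cells it ran from 0.05 to 0.38 (limma adjusted p up to 0.807).

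Adra1a, the α1A receptor gene, was close to absent before adulthood. No count fell on it in any mononucleated E18.5 library, and 3 counts over that group, the limit that a count of 0 allows, would be 0.0474 CPM (a limit that covers counting error only). The limit was reckoned from total counts without the authors' scaling, which the levels carry, so folds set against it are approximate. Binucleated E18.5 libraries held 15, 0 and 6 counts, mononucleated P7 libraries 1, 29 and 17, and binucleated P7 libraries 5, 4 and 10. In the adult the level was 36.1, 21.9 and 26.3 CPM in mononucleated libraries (658, 317 and 430 counts) and 28.2, 28 and 29.5 CPM in binucleated libraries (478, 420 and 513 counts). Thus every adult library lay above 21 CPM and every earlier one below 1.4 CPM. The ratio of mean CPM between adult and P7 was 35.4 in mononucleated cells (fitted log2 5.94 ± 1.15, limma adjusted p = 0.00058) and 80.5 in binucleated cells (fitted log2 6.32 ± 1.15, adjusted p = 0.000381). The mononucleated ratio was 24.0 without P7 library 1 and 54.4 without P7 library 2. The binucleated ratio was 70.1 without P7 library 2 and 114 without P7 library 3. How the authors chose which genes to list was not found in the labels or files, and no library before adulthood held more than 29 counts of the gene.

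Mean Adra1a in adult mononucleated cells lay about 593-fold above the E18.5 limit of 3 counts over the group (limma adjusted p = 1.23e-06 for adult against E18.5). Adult binucleated cells held 72.1 times more than E18.5 ones by mean CPM (adjusted p = 4.02e-05). Without binucleated E18.5 library 1 or 2 that ratio was 244 or 48.1, so its size is poorly fixed. Mean Adra1a in P7 mononucleated cells lay about 16.8-fold above the limit of the mononucleated E18.5 group (limma adjusted p = 0.0123 for P7 against E18.5). P7 library 1, at 0.0434 CPM, lay below that limit. The fold was 10.9 without P7 library 2. The call was lost without P7 library 2 (0.0696) or library 3 (0.0617) and after quantile normalization (0.0962). Endothelial marker sums were also high in the 6 adult libraries, and their part in the Adra1a difference was not tested.

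Chrm2, the M2 receptor gene, stood at 62.2 to 64.5 CPM per kb in the adult against 28.8 to 29.9 for Adra1b, and rose between P7 and the adult in both classes. At P7 the binucleated levels of Chrm2 and Adra1b, 25.3 ± 2.98 and 23.8 ± 0.846 CPM per kb (SD, n = 3), differed by less than the spread. It was at 106, 131 and 123 CPM in the mononucleated E18.5 libraries, 207, 162 and 150 CPM at P7, and 373, 328 and 397 CPM in the adult. Binucleated libraries held 57.9, 110 and 93.4 CPM, then 161, 127 and 143 CPM, then 340, 347 and 372 CPM. No adult library overlapped a P7 library, and no P7 library overlapped an E18.5 library of its class. The rise from P7 to the adult was 2.13-fold in mononucleated cells (log2 1.09 ± 0.19, limma adjusted p = 0.000223) and 2.47-fold in binucleated cells (log2 1.3 ± 0.19, adjusted p = 4.79e-05). From E18.5 to P7 the binucleated rise of 1.7-fold passed (log2 0.76 ± 0.19, adjusted p = 0.00544), while the mononucleated difference of 0.52 on the log2 scale did not (adjusted p = 0.0718). That mononucleated difference passed without the binucleated E18.5 library 1 (0.00496) or library 2 (0.0403), which enter it through the shared error. The summed atrial markers fell over the same ages, and their part in the Chrm2 values was not tested.

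The balance of the receptor pairs was read within each library, where library scaling cancels. The log2 ratio of Adrb1 to Chrm2 averaged -3.21 and -2.81 at E18.5 (mononucleated and binucleated), -1.99 and -1.71 at P7, and -3.63 and -3.94 in the adult. Thus P7 had the most Adrb1 for its Chrm2 in both classes. The fall to the adult was 3.12-fold and 4.68-fold (exact permutation p = 0.1 for each, the smallest that 3 against 3 libraries allow). Without adult library 3 the binucleated log2 change of this ratio was -1.37 in place of -2.23. The rise to P7 had exact permutation p = 0.1 in mononucleated and 0.3 in binucleated cells, where it was 1.09 on the log2 scale and 0.4 without E18.5 library 2. The log2 ratio of Adra1a to Adra1b reached -1.85 and -1.74 in the adult after -7.47 and -7.79 at P7 (exact permutation p = 0.1 in each class). The mononucleated change of 5.61 was 4.18 without P7 library 1 and 6.49 without P7 library 2. The 3 ratios were each compared over 7 contrasts, so no adjusted value could pass.

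**Figure D2:**
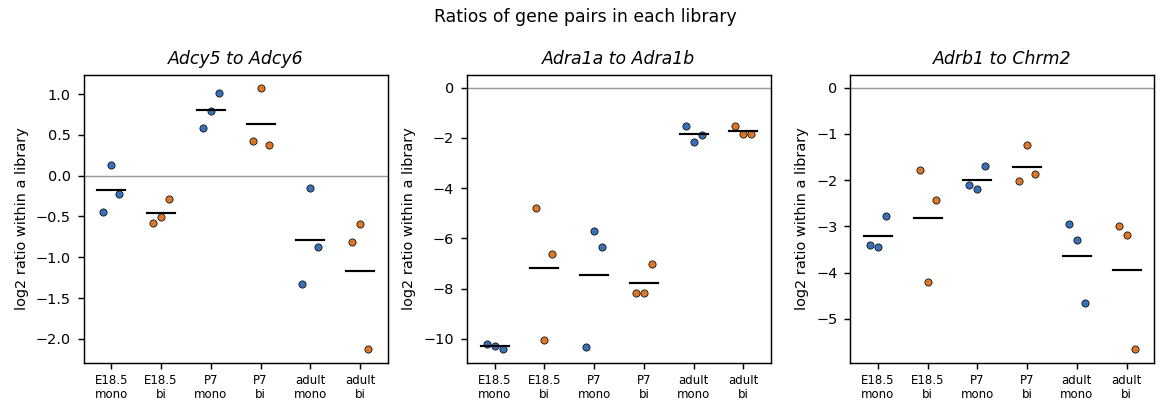
Log2 ratio of counts within each library for 3 gene pairs (vertical axes), by age and nuclear class (blue mononucleated, orange binucleated); points are libraries and bars are group means (n = 3). Adcy5 to Adcy6 lies above 0 at P7 in all 6 libraries and below 0 in all 6 adult libraries, and the Adra1a to Adra1b ratio of the mononucleated E18.5 group rests on libraries without an Adra1a count.

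Adcy5 and Adcy6, the cyclases best known in the heart, took different courses. Adcy5 stood at 47.3, 69.8 and 65.8 CPM in the mononucleated E18.5 libraries, 91.7, 74.8 and 75.5 CPM at P7, and 33.3, 48.2 and 29.7 CPM in the adult. Binucleated libraries held 73.4, 53.8 and 56.4 CPM, then 75.9, 160 and 66.8 CPM, then 32.4, 50.3 and 16 CPM. All adult libraries lay below all P7 libraries. The fall from P7 to the adult was 2.21-fold in mononucleated cells (log2 -1.15 ± 0.36, limma adjusted p = 0.0173) and 3.15-fold in binucleated cells (log2 -1.65 ± 0.36, adjusted p = 0.0017). The mononucleated call was lost without P7 library 1 (0.0609), adult library 1 (0.0534) or adult library 3 (0.0691). The binucleated fall ran from log2 -2.03 to -1.21 over all alternatives (limma adjusted p up to 0.0124). Its highest P7 library was library 2 (160 CPM) and its lowest adult library was library 3 (16 CPM). Against E18.5, adult binucleated cells were 2.04-fold lower (log2 -1.03 ± 0.36, adjusted p = 0.022), a call lost without binucleated E18.5 library 1 (0.0614) or adult library 3 (0.147). In mononucleated cells that difference was -0.73 (adjusted p = 0.0994). It passed without adult binucleated library 3 (0.0468), with array weights (0.0368) and with total count scaling (0.0135).

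Adcy6 passed in no age contrast of the fit to all 18 libraries. With array weights, mononucleated cells were lower at P7 than at E18.5 (log2 -0.64, adjusted p = 0.00268) and higher in the adult than at P7 (0.43, adjusted p = 0.021). With total count scaling, binucleated cells were lower at P7 (adjusted p = 0.034) and in the adult (adjusted p = 0.0117) than at E18.5. It was at 64.1, 64.0 and 77.0 CPM in the mononucleated E18.5 libraries, 61.3, 43.2 and 37.1 CPM at P7, and 83.7, 53.5 and 54.8 CPM in the adult. Binucleated libraries held 110, 76.6 and 68.5 CPM, then 56.4, 75.7 and 51.5 CPM, then 56.7, 75.5 and 69.8 CPM. The P7 values tended to be the lower ones, with a log2 difference from E18.5 of -0.56 ± 0.23 in mononucleated cells (limma adjusted p = 0.105) and -0.46 ± 0.23 in binucleated cells (adjusted p = 0.126). The mononucleated difference passed without P7 library 1 (0.0445) or binucleated E18.5 library 1 (0.0444), and the adult excess over P7 (log2 0.44, adjusted p = 0.141) passed without P7 library 1 (0.0472).

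The log2 ratio of Adcy5 to Adcy6 therefore went from -0.18 and -0.46 at E18.5 to 0.8 and 0.63 at P7 and to -0.79 and -1.17 in the adult. Adcy5 counts outnumbered Adcy6 counts in each P7 library and in none of the adult libraries. Each of these 4 changes with age had an exact permutation p of 0.1, the smallest possible. Per kilobase of the longest coding transcript, Adcy5 and Adcy6 were at 14.4 ± 7.35 and 10.1 ± 2.12 CPM per kb in binucleated P7 cells (SD, n = 3) and at 4.7 ± 2.45 and 11.2 ± 1.6 CPM per kb in binucleated adult cells.

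Pde3a, the phosphodiesterase inhibited by cyclic GMP, rose between E18.5 and the adult in both classes. Mononucleated libraries held 19.8, 28.7 and 29.7 CPM at E18.5, 72.1, 55.6 and 49.3 CPM at P7, and 153, 106 and 102 CPM in the adult. Binucleated libraries held 5.54, 25.7 and 21.2 CPM, then 71.1, 70.1 and 82.9 CPM, then 113, 129 and 129 CPM. The 3 ages did not overlap in either class. From E18.5 to the adult the rise was 4.62-fold in mononucleated cells (log2 2.21 ± 0.39, limma adjusted p = 0.000168) and 8.5-fold in binucleated cells (log2 3.09 ± 0.39, adjusted p = 4.64e-06). Without the low E18.5 library 1 the binucleated Pde3a rise was 2.4 on the log2 scale and was still called. From E18.5 to P7 the binucleated rise of 5.14-fold (adjusted p = 0.000238) was called under every alternative tried, but fell from log2 2.36 to 1.67 without E18.5 library 1. The mononucleated steps were less firm: 2.27-fold to P7 (adjusted p = 0.0453) and 2.03-fold from P7 to the adult (adjusted p = 0.0468) were each lost when any 1 of the 6 libraries compared was left out (0.0684 to 0.152 and 0.0525 to 0.158). They were also lost with total count scaling (0.0794 and 0.179), without the intensity trend (0.0646 and 0.0644) and without some libraries of other groups. The step to the adult was lost with quantile normalization too (0.08). The binucleated step from P7 to the adult, 0.73 on the log2 scale, did not pass (adjusted p = 0.164) but did without E18.5 library 1 (0.0034).

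Pde4d, a cyclic AMP-specific phosphodiesterase, rose by a smaller amount. Mononucleated libraries held 26.4, 26.2 and 24.0 CPM at E18.5, 29.0, 30.7 and 27.5 CPM at P7, and 44.9, 34.7 and 41.2 CPM in the adult. Binucleated libraries held 23.1, 28.8 and 35.1 CPM, then 37.5, 32.9 and 34.6 CPM, then 40.7, 42.2 and 44.5 CPM. The adult libraries lay above all earlier libraries of their class. The rise from E18.5 to the adult was 1.57-fold in mononucleated cells (log2 0.65 ± 0.15, limma adjusted p = 0.00154) and 1.49-fold in binucleated cells (log2 0.57 ± 0.15, adjusted p = 0.00368), and both calls were lost with scaling by total counts (0.197 and 0.42). The mononucleated step from P7 to the adult, 1.38-fold (adjusted p = 0.0201), was lost without P7 library 3 (0.0687), adult library 1 (0.0878) or adult library 3 (0.0599), and with total count scaling (log2 0.16, 0.474). The binucleated step from E18.5 to P7 (log2 0.29, adjusted p = 0.139) passed without E18.5 library 3 (0.0291).

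Prkaca, the catalytic subunit of PKA, was by far the most abundant of the 9 genes per length, at a mean of 187 CPM per kb over the 18 libraries against 36.5 for Chrm2. It held 471, 471 and 498 CPM in the mononucleated E18.5 libraries, 480, 461 and 524 CPM at P7, and 419, 441 and 336 CPM in the adult. Binucleated libraries held 230, 265 and 462 CPM, then 447, 568 and 502 CPM, then 425, 429 and 217 CPM. In mononucleated cells it lay within 336 to 524 CPM, with the 3 adult libraries below all earlier ones, and passed in no age contrast. With quantile normalization or total count scaling, Prkaca was lower in mononucleated adult than E18.5 cells (log2 -0.82, adjusted p = 0.0163, and -0.67, adjusted p = 0.0346). In binucleated cells it was called 1.66-fold higher at P7 than at E18.5 (log2 0.73 ± 0.25, limma adjusted p = 0.0322), although library 3 at E18.5 overlapped the P7 range. That call was lost without E18.5 library 1 (0.107) or 2 (0.09), or P7 library 2 (0.103) or 3 (0.0731), and with quantile normalization (0.116), total count scaling (0.113) or array weights (log2 0.26, 0.308). The binucleated difference from P7 to the adult, -0.56 ± 0.25 on the log2 scale, did not pass (adjusted p = 0.0887). It passed without E18.5 library 1 (0.0482) or 3 (0.04), and with quantile normalization (0.0224) or total count scaling (0.0226). Over all alternatives this difference ran from -0.83 to -0.24, with limma adjusted p up to 0.456. Adult library 3, at 217 CPM, was the lowest of the binucleated libraries.

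**Figure D3:**
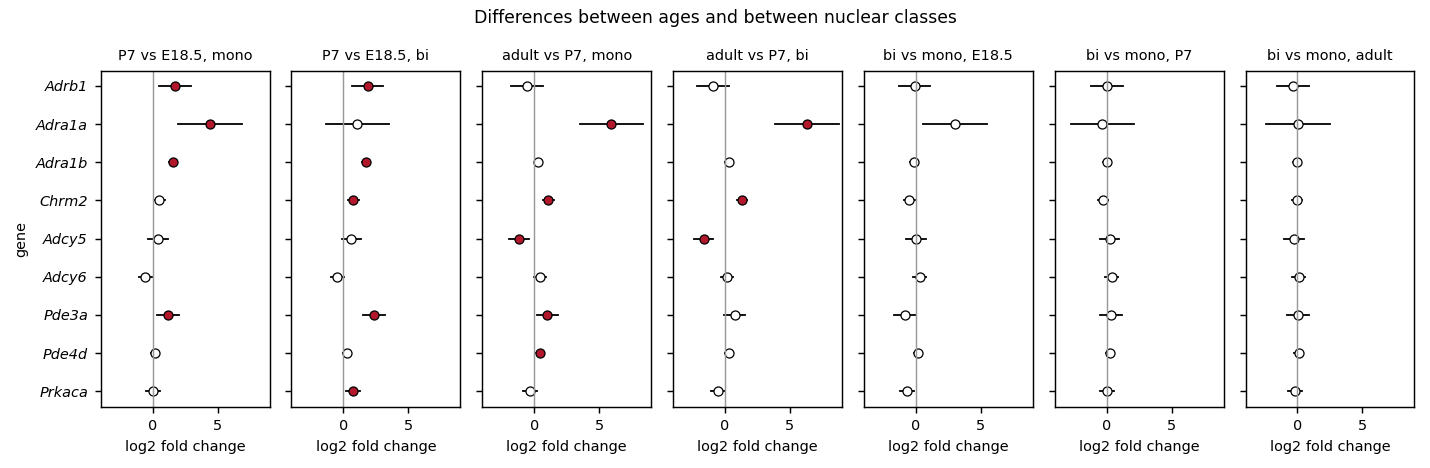
Log2 fold change of each gene (horizontal axes) with its 95% confidence interval from limma, for the 4 steps between neighbouring ages and for binucleated against mononucleated cells at each age. Filled points passed the adjusted threshold of 0.05; no point is filled in the 3 panels that compare nuclear classes.

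Counted over the steps, 4 of the 9 genes were called higher and none lower from E18.5 to P7 in mononucleated cells (10.7% and 7.84% of all genes), and 5 higher and none lower in binucleated cells (18.2% and 17.7%). From P7 to the adult, 4 were higher and 1 lower in mononucleated cells (19.1% and 22.3% of all genes), and 2 higher and 1 lower in binucleated cells (17.3% and 19.7%). The order of levels per length changed accordingly. In mononucleated cells at E18.5, Prkaca (211 CPM per kb) was followed by Chrm2 (21.2), Adcy6 (11.3), Adcy5 (8.7), Adra1b (8.0), Pde4d (6.07), Adrb1 (4.51) and Pde3a (2.12). In adult mononucleated cells Prkaca (175 CPM per kb) was followed by Chrm2 (64.5 ± 6.15) and Adra1b (29.9 ± 1.2), which lay apart from each other and from the rest. Adrb1 (11 ± 5.58), Adcy6 (10.6 ± 2.83), Pde3a (9.79 ± 2.28) and Pde4d (9.57 ± 1.23) then differed by less than their SD (n = 3), and Adra1a (6.57 ± 1.7) and Adcy5 (5.29 ± 1.4) came last.

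Binucleated and mononucleated cells were then compared at each age. At E18.5, 0 of the 9 genes were called, where limma called 97 of 12048 genes (0.805%) and 1679 had an unadjusted p under 0.05, Chrm2, Prkaca and Adra1a among them. Chrm2 was 0.51 lower on the log2 scale in binucleated cells (95% interval -0.91 to -0.1, limma adjusted p = 0.277) and Prkaca 0.66 lower (-1.19 to -0.13, adjusted p = 0.281). Prkaca alone had groups that did not overlap (7.1% of all genes lay below in this way). The share of all genes in either direction is not given. The Prkaca difference without binucleated library 3, -0.96, passed (adjusted p = 0.0424). Adra1a, with a fitted log2 difference of 3.02 ± 1.15 (adjusted p = 0.281), passed without binucleated library 2 (0.036). Both the endothelial and fibroblast marker sums were higher in these binucleated libraries, and library 1 held the lowest Chrm2, Pde3a and Prkaca of the age.

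At P7, 0 of the 9 were called, where limma called 256 genes (2.12%) and 1210 had an unadjusted p under 0.05, none of the 9 among them. Pde4d was 0.27 higher in binucleated cells on the log2 scale (95% interval -0.05 to 0.58, limma adjusted p = 0.642). It was the sole gene of the 9 whose groups did not overlap (9.84% of all genes lay above in this way). The share of all genes in either direction is not given at this age. The intervals were narrowest for Adra1b (-0.3 to 0.29) and widest for Adra1a (-2.77 to 2.11). In the adult, again 0 of the 9 were called, where limma called 11 genes (0.0913%) and 301 had an unadjusted p under 0.05, and the groups of all 9 overlapped (6.25% of all genes did not). The adult interval was -0.35 to 0.23 for Adra1b, -0.45 to 0.36 for Chrm2, -0.75 to 0.31 for Prkaca and -1.56 to 0.86 for Adrb1. The Adrb1 interval leaves room for a difference of more than 2-fold.

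Whether the class difference itself shifted with age was tested by interaction terms. Between E18.5 and P7, 0 of the 9 passed (281 of all genes, 2.33%, did, and 1775 had an unadjusted p under 0.05). The value for Pde3a was 1.18 ± 0.55 (limma adjusted p = 0.339), for Adra1a -3.35 ± 1.63 (adjusted p = 0.361) and for Prkaca 0.7 ± 0.35 (adjusted p = 0.378). Between P7 and the adult, 0 of the 9 passed either (25 of all genes, 0.208%, did, and 568 had an unadjusted p under 0.05).

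The rest of the pathway was read from 9 lists that held 92 measured genes other than the 9. From E18.5 to the adult, 29 of the 92 were called higher and 33 lower in mononucleated cells, and 27 higher and 33 lower in binucleated cells, with medians of 0.12 and -0.11 on the log2 scale. Over all genes 26.2% were called higher and 27.7% lower in mononucleated cells, and 28.3% and 29.4% in binucleated cells, and the list counts below are to be read against these shares. With total count scaling, under which the median of all genes was -0.4 and -0.43, the split was 19 higher and 38 lower, and 17 higher and 42 lower.

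Among genes of the heterotrimeric G protein subunits, more fell than rose, where 27.7% and 29.4% of all genes were lower in the mononucleated and binucleated comparison. In each class 11 of 16 were called lower and 1 (Gna11, a Gq-class α subunit) higher in the adult than at E18.5, with list medians of -0.89 and -1.0. With total count scaling 11 and 14 were lower and none higher, so the Gna11 call was lost. Gng2, a γ subunit gene, was at 97.3, 110 and 101 CPM in the mononucleated E18.5 libraries, at 2.75 to 3.37 CPM at P7 and at 0.274 to 0.415 CPM in the adult (log2 -8.17 ± 0.27, limma adjusted p = 1.61e-12 for adult against E18.5). Its binucleated libraries went from 102 to 109 CPM at E18.5 to 0.402 to 0.866 CPM in the adult. Gnai1, an inhibitory α subunit gene, went from 63.6, 74.5 and 64.1 CPM to 8.51, 10 and 8.57 CPM in mononucleated cells, 7.44-fold lower (log2 -2.89 ± 0.22, adjusted p = 1.31e-08). For Gng2 most of the fall lay between E18.5 and P7, and for Gnai1 between P7 and the adult. Kcnj3, a subunit of the potassium channel that M2 receptors open, rose instead: from 10.8, 13.8 and 6.35 CPM to 68.6, 66.4 and 63.7 CPM in binucleated cells, 6.73-fold (log2 2.75 ± 0.24, adjusted p = 5.5e-08). The list of Gq and muscarinic effectors to which it belongs had 3 genes higher and 3 lower of 10 in mononucleated cells (26.2% and 27.7% of all genes), and 2 and 2 in binucleated cells (28.3% and 29.4%). It had 2 higher and 4 lower in both classes with total count scaling. In that list Prkcd, a protein kinase C gene, was lower at P7 than at E18.5 in binucleated cells (log2 -1.99, adjusted p = 0.000116).

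**Figure D4:**
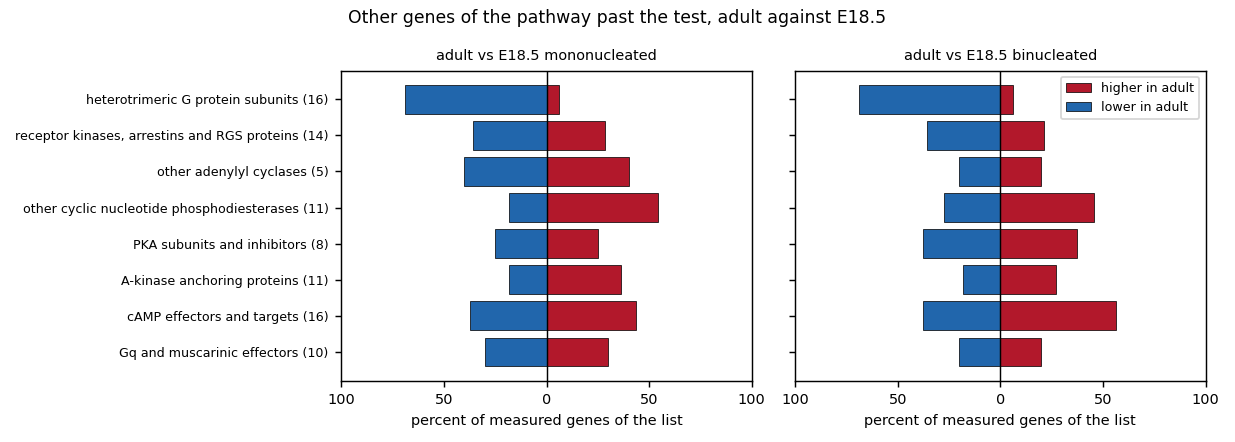
Percent of the measured genes of 8 pathway lists called higher (red, to the right) or lower (blue, to the left) in the adult than at E18.5, in mononucleated and binucleated cells; the number of measured genes stands in parentheses. G protein subunits show 11 of 16 lower in both classes, and the other phosphodiesterases show 6 of 11 higher in mononucleated cells.

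Of the other phosphodiesterases, 6 of 11 were higher and 2 lower in mononucleated cells, and 5 higher and 3 lower in binucleated cells. Over all genes 26.2% were higher and 27.7% lower, and 28.3% and 29.4%. The counts were 5 and 2, and 4 and 3, with total count scaling. Pde4a, a close relative of Pde4d, went from 14.4, 27.5 and 31.4 CPM to 188, 188 and 187 CPM in binucleated cells, 8.1-fold (log2 3.02 ± 0.22, limma adjusted p = 5.77e-09). Pde7a went from 4.02, 6.12 and 6.95 CPM to 77.1, 94.3 and 73.5 CPM in mononucleated cells, 14.6-fold (adjusted p = 5.07e-10). Pde4b was higher at P7 than at E18.5 in both classes (2.06-fold and 2.52-fold, adjusted p = 0.000474 and 2.71e-05). Pde3b, the paralog of Pde3a, went the other way, from 24.6 to 4.47 CPM on average in mononucleated cells (log2 -2.7 ± 0.53, adjusted p = 0.000411) and from 17.9 to 3.79 CPM in binucleated cells (log2 -2.38 ± 0.53, adjusted p = 0.00105). Among 5 other cyclases, Adcy9 was higher in the adult than at E18.5 in both classes, 3.01-fold in binucleated cells (adjusted p = 0.000475). Adcy3 was lower in mononucleated cells (adjusted p = 0.00196), from 4.14, 6.69 and 2.53 CPM to 0.22, 0.138 and 0.245 CPM.

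Of 8 PKA subunits and inhibitors, 2 were called higher and 2 lower in mononucleated cells (26.2% and 27.7% of all genes), and 3 and 3 in binucleated cells (28.3% and 29.4%). These became 1 and 3, and 1 and 4, with total count scaling. Pkia, an inhibitor of the catalytic subunit, went from 85.7, 177 and 153 CPM to 754, 580 and 742 CPM in binucleated cells, 5.19-fold (log2 2.38 ± 0.2, limma adjusted p = 4.12e-08). Prkacb, the second catalytic subunit gene, stayed between 69.4 and 165 CPM and passed in no contrast. Prkar1b, a regulatory subunit gene, was the 1 gene of the 92 called between nuclear classes, at P7, where 2.12% of all genes were called. It was at 24.4, 17.9 and 22.5 CPM in the mononucleated P7 libraries and 4.89, 5.64 and 6.14 CPM in the binucleated ones, 3.85-fold lower (log2 -1.95 ± 0.26, adjusted p = 0.000545), and it was between 4.26 and 6.12 CPM in all E18.5 libraries and at or below 2.2 CPM in the adult. The conduction-system markers were high in the same mononucleated P7 libraries, and their part in the Prkar1b difference was not tested.

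Anchoring proteins, which place PKA near its targets, had 4 of 11 higher and 2 lower in mononucleated cells (26.2% and 27.7% of all genes) and 3 higher and 2 lower in binucleated cells (28.3% and 29.4%). With total count scaling these became 1 and 4, and 2 and 4. Akap1, which anchors PKA at mitochondria, was 2.5-fold higher in adult than in E18.5 binucleated cells (limma adjusted p = 4.99e-05), and Akap5 fell from 4.77, 4.13 and 3.35 CPM to below 1 CPM (adjusted p = 4e-05). In the list of cyclic AMP effectors and targets, 7 of 16 were higher and 6 lower in mononucleated cells (26.2% and 27.7% of all genes), and 9 higher and 6 lower in binucleated cells (28.3% and 29.4%). The balance turned with total count scaling, to 4 and 6 in mononucleated cells, and was even at 6 and 6 in binucleated cells. The phosphatase inhibitor genes Ppp1r1a and Ppp1r1b, both PKA targets, were among the lower ones. In binucleated cells Ppp1r1b went from 142, 124 and 130 CPM to 0.709, 1.0 and 0.402 CPM (adjusted p = 2.98e-10) and Ppp1r1a was 21-fold lower (adjusted p = 3.8e-10). Receptor kinases, arrestins and RGS proteins, which end receptor signals, had 4 of 14 higher and 5 lower in mononucleated cells (26.2% and 27.7% of all genes) and 3 higher and 5 lower in binucleated cells (28.3% and 29.4%). They had 4 and 6, and 1 and 6, with total count scaling. Rgs19 was 3.04-fold lower in binucleated cells (adjusted p = 2.61e-05). Rgs5, which is also a pericyte marker, was higher in mononucleated cells (from at most 2.71 CPM to 16.7, 20.9 and 22.7 CPM, adjusted p = 9.05e-05).

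Genes with the profile most like each of the 9 were found by the root mean square difference of centred log2 values over the 18 libraries, a description without a test. Schip1 (0.16) and Hhatl (0.17) were nearest to Adra1b, Ficd (0.18) and Ric8b (0.19) to Chrm2, and Vwa8 (0.18) and Dysf (0.27) to Pde3a. Nearest to Pde4d were Osbpl1a and Cdkal1 (both 0.13), to Prkaca Ppp2ca (0.16) and Mark3 (0.17), and to Adcy6 Mark4 (0.2) and Naca (0.21). Adcy5 had B4galt6 and Evl (both 0.3), Adrb1 had Slc44a1 (0.29) and Csnk1g2 (0.33), and Adra1a had Sod3 (1.45) and Meig1 (1.47). Among the 9 themselves, Adcy6 and Pde4d (0.48) and Adra1b and Chrm2 (0.54) were each other's nearest, but the median distance of all genes was 0.62 from Adcy6, 0.57 from Pde4d, 0.99 from Adra1b and 0.94 from Chrm2.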

How the data were processed

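Total RNA of sorted cardiomyocytes was extracted and sequenced with stranded mRNA and SMARTer amplification kits, per the labels' protocols, and the submitters' processing notes name STAR, limma and the mm9 genome. Tool versions, the counter, the annotation and the gene listing rule: not given in the sources used here. The deposited log2 values are the authors' own: in every library each value equals log2 of a whole count plus 0.5, times a single factor (100% of values within 0.001 of a whole number), so counts were recovered and expressed as CPM with the authors' factors. Symbols were found for 11927 of 12048 identifiers in GENCODE M21, which also gave transcript lengths. limma 3.58.1 in R 4.3.3 was fitted to the deposited log2 values with 6 group means over all 18 libraries (12 residual degrees of freedom), an intensity trend and 11 contrasts; it was tested on simulated data. Same-numbered libraries of both classes deviated together at P7 (correlations 0.182 to 0.236) and in the adult (0.261 to 0.327), where they count as paired by the data. At E18.5 they did so more weakly (0.054 to 0.158, against -0.095 to 0.002 for libraries of unlike number). The main fit ignored this pairing at every age, and the replicate block was an alternative. Replicate libraries differed by more than counting noise (chi-square per degree of freedom 13.7 to 256). The 9 genes and all lists were chosen with earlier results of these data known. Named were the 9 genes, up to 2 genes per list with the smallest adjusted p in the 9 class and age contrasts, close paralogs of the 9, and the 2 nearest profiles; Gna11 was named after its values were seen. Ratios were compared by two-sided exact permutation tests. Alternatives covered scaling, offset, trend, weights, a count filter, left-out libraries and the replicate block.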

Additional observations from a re-analysis of the deposited data

Results flagged for a closer look

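The class difference of Prkar1b, a PKA regulatory subunit gene, differed between P7 and E18.5 by the test of the interaction itself: binucleated minus mononucleated, on the log2 scale, was lower at P7 than at E18.5 (difference -1.78 ± 0.37, limma adjusted p = 0.0181). The value passed no longer with the replicate block (adjusted p = 0.0537), without mononucleated P7 library 1 (0.0537) or without library 3 (0.0572). It was the 1 gene of the 92 called for this interaction, where 2.33% of all genes were called.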

How the results depend on the processing

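Genes called among the 9 were counted again under each alternative. At E18.5 the class count of 0 became 1 without binucleated E18.5 library 2 or 3 (range 0 to 1 over left-out libraries), and for the other ages it stayed 0 under each alternative. The interaction count between E18.5 and P7 became 1 with array weights (Adra1a, adjusted p = 0.0168). From E18.5 to P7 in mononucleated cells, 4 became 2 with total count scaling and 2 without the intensity trend, with 1 to 6 when a library was left out. In binucleated cells 5 became 3 to 6 when a library was left out. From P7 to the adult, 5 became 3 with total count scaling in mononucleated cells (2 to 6 with a library left out), and 3 became 5 with array weights in binucleated cells (3 to 5 with a library left out). From E18.5 to the adult, 5 became 5 to 7 in mononucleated and 6 became 5 to 6 in binucleated cells with a library left out. Leaving out binucleated E18.5 library 1 and adult library 3 together was an alternative chosen after seeing the data. With total count scaling the median log2 change of all genes was -0.4 and -0.43 for adult against E18.5 and -0.32 and -0.25 for adult against P7, beside medians within 0.03 of 0 with the authors' scaling.

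Signs turned for differences that had not passed. Prkaca from E18.5 to P7 in mononucleated cells (0.02) became -0.12 with quantile normalization, -0.06 with total count scaling, -0.02 with array weights and -0.03 without P7 library 3 (-0.03 to 0.06 over left-out libraries). Prkaca from E18.5 to the adult in binucleated cells (0.16) became -0.28, -0.25 and -0.21 under the same 3 settings, -0.04 without E18.5 library 1 and -0.0 without adult library 2 (-0.04 to 0.49 over left-out libraries). Adra1a from E18.5 to P7 in binucleated cells became -0.48 without E18.5 library 2 (-0.48 to 2.34 over left-out libraries), and Adcy6 from P7 to the adult in binucleated cells became -0.07 with total count scaling. The cause was not tested. Of 37 class and interaction values with an unadjusted p of 0.1 or more, 25 changed sign somewhere and 0 passed.

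No fit with the replicate block changed a call of the 9 genes: with it, 0 were called between classes at any of the 3 ages. Over all genes, array weights gave the highest counts, 338 for class at E18.5 against 97, 1401 against 256 at P7, 52 against 11 in the adult, 5177 against 2231 from E18.5 to P7 in mononucleated cells, and 1199 and 233 for the interactions against 281 and 25. The lowest were 0 at E18.5 and in the adult, 129 at P7, and 160 and 0 for the interactions. In the adult 25 genes were called with the replicate block.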
